A study of Rattus norvegicus with 24 samples.

Results

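The tibialis anterior, the muscle at the front of the shin that lifts the foot, was compared between 3 left limbs that had recovered from nerve silencing and 3 left limbs of sham-operated animals, which makes 6 of the 24 limbs sequenced. The members are the left limbs that the labels give the condition TTX+Recovery or sham, and no measured value enters that rule. All animals were aged male Fischer 344 rats (23 ± 1 months), an inbred strain, and no gene was altered in them. In the recovery animals, tetrodotoxin (TTX), a toxin that closes sodium channels of the nerve and silences it, was delivered to the left common peroneal nerve for 6 to 7 days, and 9 days without TTX followed. The sham animals had the same operation but never received TTX, and 1 of them belonged to each time point of the study. Sham limb 1 carries the time label Atrophy, sham limb 2 the label Recovery and sham limb 3 the label Repeated Atrophy, so that only sham limb 2 was matched in time to the recovery limbs. The right limbs of the same 6 animals were sequenced too and serve as a second reading of each animal. The comparison asks what still differed after 9 days of restored nerve activity from muscle that had been operated on but never silenced.

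Skeletal muscle deprived of its nerve's activity loses mass through ubiquitin ligases and the proteasome, and it returns in part to an immature state in which embryonic myosins and acetylcholine receptor subunits are made outside the synapse. When activity comes back, fibres rebuild their contractile proteins while the connective tissue around them, made mostly by fibroblasts, can be remodelled. In aged muscle both the loss and the rebuilding are known to differ from those of young muscle.

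The regions just upstream of 4 genes described further on are printed here. Col1a2 is shown as a fibrillar collagen, Myh3 as an embryonic contractile protein and Trim63 as a ubiquitin ligase of muscle loss, while Chac1 is shown for its own values and not for a group. Each is the 250 bases before the start site given by RefSeq (build GRCr8, plus strand), and capitals mark 1 motif searched on both strands. In Col1a2 (chr4:33518307-33518556) the capitals mark CCAAT, read on the other strand as ATTGG, which 34.3% of all 27457 promoters held in a window of this length. In Myh3 (chr10:52268935-52269184) they mark CANNTG, the E-box that MyoD-type factors can bind, which 65.2% of the promoters held. In Trim63 (chr5:151816986-151817235) they mark GTAAACA, a forkhead motif, which 3.25% held, and in Chac1 (chr3:126795881-126796130) they mark TGATGNAA, the core of the element that ATF4 can bind, which 3.27% held. A match of letters describes the sequence and does not show that a factor bound there.
Col1a2: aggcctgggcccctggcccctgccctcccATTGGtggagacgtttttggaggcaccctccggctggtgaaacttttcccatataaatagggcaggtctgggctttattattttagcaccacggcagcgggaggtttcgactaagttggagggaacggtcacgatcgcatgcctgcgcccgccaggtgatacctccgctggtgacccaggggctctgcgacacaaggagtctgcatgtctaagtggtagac
Myh3: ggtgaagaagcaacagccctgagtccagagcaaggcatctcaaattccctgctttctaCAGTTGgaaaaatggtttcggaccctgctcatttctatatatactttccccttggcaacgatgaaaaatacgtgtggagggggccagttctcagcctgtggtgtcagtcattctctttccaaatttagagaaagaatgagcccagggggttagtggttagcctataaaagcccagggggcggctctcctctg
Trim63: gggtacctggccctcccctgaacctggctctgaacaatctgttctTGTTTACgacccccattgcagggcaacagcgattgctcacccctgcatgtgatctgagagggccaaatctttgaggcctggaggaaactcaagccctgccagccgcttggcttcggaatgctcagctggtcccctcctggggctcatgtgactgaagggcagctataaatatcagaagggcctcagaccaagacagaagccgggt
Chac1: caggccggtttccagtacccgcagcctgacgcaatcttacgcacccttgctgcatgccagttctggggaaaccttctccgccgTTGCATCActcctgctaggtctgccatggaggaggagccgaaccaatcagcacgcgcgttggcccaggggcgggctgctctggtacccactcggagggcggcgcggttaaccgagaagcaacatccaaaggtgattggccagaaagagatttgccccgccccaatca

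Levels are given as CPM (how many of every 1000000 reads in a library fell in the gene), rescaled between limbs by the median of ratios, and they are called normalised CPM below. They depend on the length of a transcript, so levels were compared only between limbs and not between genes. The depth inferred from the smallest step between values was, in units of 1000000 reads, 19.8 to 24.4 in the recovery left limbs and 22.6 to 29.7 in the sham left limbs. Differences are on the log2(normalised CPM + 1) scale, recovery minus sham, with the standard error (SE) of a limma fit with n = 3 limbs a group, and this scale understates the change of genes with low values. All p-values called adjusted were corrected by the Benjamini-Hochberg method across every row of a fit. Nothing in the labels ties limbs of different animals together, and each limb of a group came from another animal. In whole muscle, fewer cells of a type and less RNA per cell cannot be told apart.

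The sham limbs were less alike than the recovery limbs. Over 10613 rows with a mean of at least 1 normalised CPM, the root mean square log2 difference between 2 recovery left limbs was 0.377 to 0.466, and between 2 sham left limbs it was 0.638 to 0.781. Recovery limbs differed from sham limb 2 by 0.484 to 0.516, from sham limb 1 by 0.739 to 0.765 and from sham limb 3 by 0.838 to 0.907. The recovery limbs were thus closer to the sham limb of their own time point than the sham limbs were to each other. Sham animal 3 stood apart in both limbs. On the first principal component its limbs had scores of 27.0 and 17.7, towards the silenced limbs of the study, while the other sham limbs and the 6 limbs of the recovery animals lay between −38.2 and −3.89. The left and right limb of a sham animal deviated together from the means of their groups (correlation over rows 0.612 to 0.838 in the 3 animals), and those of the recovery animals did not (−0.197 to 0.0584). The spread among sham limbs was thus shared by both limbs of an animal.

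**Figure D1:**
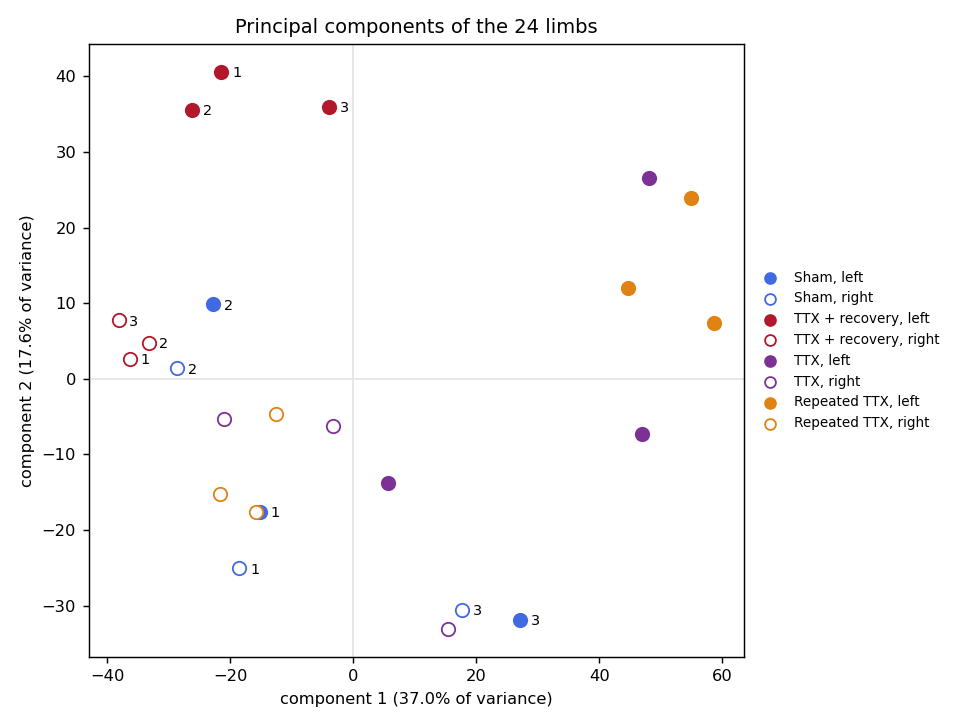
Principal components of the 24 limbs over 10613 rows, with component 1 on the x axis and component 2 on the y axis (arbitrary units), left limbs filled, right limbs open, and the animal number beside recovery and sham limbs. The 3 recovery left limbs have the highest scores on component 2 (35.6 to 40.6), sham left limb 2 has 9.85, and sham left limbs 1 and 3 have −17.6 and −31.9.

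With all 6 limbs, 0 of 13399 rows passed the threshold of an adjusted p up to 0.05 in limma with a minimum fold change of 1.2 (0% of rows). The lowest adjusted p was 0.135, shared by 95 rows, while 2376 rows had an unadjusted p under 0.05, 8.96% of all rows being higher and 8.78% lower in the recovery limbs. In 1515 rows (11.3%) all 3 recovery limbs were above all 3 sham limbs, and in 1742 rows (13.0%) all were below. The gene groups below are therefore described by how many members had such separate values, beside those shares of all rows. No gene named in them passed in this fit, in which each limb counted equally. With array weights, which let limbs count unequally, 184 of 13399 rows passed (94 higher, 90 lower). The exact permutation test of 3 limbs against 3 cannot give a two-sided p below 0.1.

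The count rested on sham limb 2. Without it, 650 of 13228 rows passed in limma, 374 higher (2.83%) and 276 lower (2.09%), and no other limb left out gave a single passing row. Sham limb 2 lay between the recovery limbs and the other sham limbs for many of the genes described here, and whether its time point, its animal or its library accounts for that was not tested. In the right limbs of the same animals, 0 of 13364 rows passed (lowest adjusted p = 0.368 in limma), 6.73% of rows being higher and 5.66% lower at an unadjusted p under 0.05, with 8.69% of rows higher and 10.0% lower without overlap. Without the right limb of sham animal 2, 782 right-limb rows passed in limma, most of them higher. The gain from leaving out this animal was thus not particular to the left side. Of the rows tested on both sides, 289 were higher without overlap on both, which is 19.3% of those on the left and 25.1% of those on the right, and 392 were lower on both, 22.7% and 29.6%. These 2 comparisons use the same animals and are not independent of each other. The difference of the left minus right differences, recovery against sham animals, also passed in 0 of 13876 rows, with 1982 rows at an unadjusted p under 0.05 (6.58% of rows higher, 7.70% lower) and a lowest adjusted p of 0.130 in limma.

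**Figure D2:**
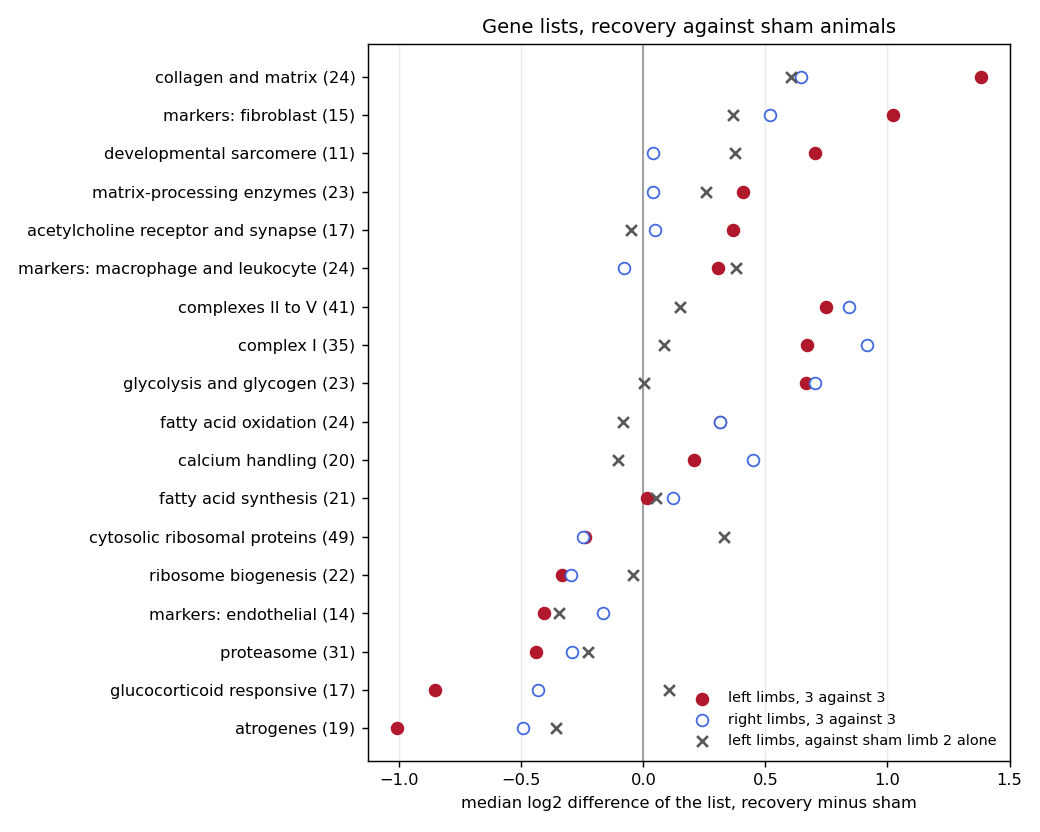
Median log2 difference, recovery minus sham, of 18 gene lists (x axis), with the number of tested members in brackets. Filled points are left limbs, open points right limbs and crosses the left limbs set against sham limb 2 alone. The collagen and matrix list has a median of 1.38 on the left and 0.65 on the right, and the atrogenes −1.01 and −0.50.

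Genes of the extracellular matrix had the highest median difference of all lists. Of 24 collagen and matrix genes tested, 16 were higher in all 3 recovery limbs than in all 3 sham limbs and 0 were lower, beside 11.3% and 13.0% of all rows. The median difference of the list was 1.38, against −0.01 over all rows tested. With the CPM as deposited, in place of the rescaled values, all rows had a median of −0.15, and the list then had 1.17. Against sham limb 2 alone, the sham limb matched in time, the median of the list was 0.61. The gene of the chain that forms most of type III collagen, Col3a1, had 799, 513 and 938 normalised CPM in recovery limbs 1, 2 and 3 and 29.3, 184 and 8.58 in sham limbs 1, 2 and 3. The lowest recovery limb was 2.79 times the highest sham limb, which was sham limb 2. Its log2 difference was 4.27 ± 0.96 (adjusted p = 0.147 in limma). The 2 chains of type I collagen were separate between the groups as well. Col1a1 had 363, 243 and 375 in the recovery limbs and 10.97, 72.8 and 5.01 in the sham limbs (log2 difference 4.21 ± 0.83), and Col1a2 had 390.0, 254 and 433 and 21.7, 120.4 and 7.57 (3.61 ± 0.86). Neither overlapped between the groups, and sham limb 2 was again the highest of its group.

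In the other matrix genes named here except Thbs4, sham limb 2 was again the highest sham limb. Postn, which encodes periostin, a matrix protein made by activated fibroblasts, had 73.3, 49.9 and 124 normalised CPM in the recovery limbs and 3.43, 15.1 and 2.80 in the sham limbs (3.59 ± 0.58), without overlap. Lum, for the fibril-spacing proteoglycan lumican, had 114, 79.9 and 122 and 10.1, 41.7 and 3.58 (3.02 ± 0.73). Fbn1, for fibrillin of the microfibrils, had 102, 68.1 and 89.8 and 10.9, 41.1 and 6.88 (2.45 ± 0.57). Col14a1 (2.80 ± 0.52), Col5a1 (2.21 ± 0.61), Col5a2 (2.13 ± 0.40), Bgn for biglycan (1.81 ± 0.39) and Thbs4 for a thrombospondin (1.37 ± 0.28) were separate too. Dcn, for decorin, was separate by little, its lowest recovery limb being 1.05 times the highest sham limb. Adjusted p-values of these genes ran from 0.135 to 0.181 in limma. Without sham limb 2, the only one matched in time, 14 of the 24 passed, all higher, beside 2.83% of all rows. Col1a1 was then at 5.25 (adjusted p = 0.00973 in limma). Against sham limb 2 alone, Col1a1 differed by 2.13, with no test.

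Of 23 enzymes that build and cut the matrix, 7 were higher without overlap and 3 lower, beside 11.3% and 13.0% of all rows, so that the lower ones were no more frequent than among all rows. Loxl1, a cross-linking oxidase, had 14.6, 10.8 and 17.6 normalised CPM in the recovery limbs and 3.82, 5.71 and 1.97 in the sham limbs (1.72 ± 0.35). Mmp2, a gelatinase, had 64.99, 44.4 and 77.1 and 18.7, 42.5 and 19.8 (1.24 ± 0.35), and its groups came within a factor of 1.05 of each other. P4ha2, a subunit of the enzyme that hydroxylates collagen in the cell, was lower, with 15.4, 18.3 and 18.3 against 27.97, 29.6 and 31.4 (−0.75 ± 0.16).

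Of 15 markers of fibroblasts, the cells that secrete most of this matrix, 9 were higher without overlap, 0 were lower and 6 overlapped. Among all rows, 11.3% were higher and 13.0% lower. The median of the markers was 1.02, and 0.37 against sham limb 2 alone. Their summed level was 1755 to 2555 normalised CPM in the recovery limbs and 460.3 to 1459 in the sham limbs, and none was at 0 in any limb. Col1a1, Col3a1, Dcn and Lum belong to both lists. Pdgfra, a receptor that marks fibroblasts and is not a matrix gene, had 24.9, 16.9 and 21.3 and 12.8, 14.7 and 9.92 (0.71 ± 0.22), a smaller difference than that of the collagens. The part that the number of fibroblasts had in the collagen result was not tested.

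The right limbs of the recovery animals, which received no TTX, also lay above the right limbs of the sham animals for the collagens. Col1a1 had 89.1, 141 and 88.9 in the right limbs of the recovery animals and 13.2, 59.4 and 6.86 in those of the sham animals (2.47 ± 0.70), and Col3a1 had 191, 172 and 119 and 29.98, 110.3 and 16.5 (2.01 ± 0.63). Neither overlapped. Of the 24 collagen and matrix genes, 7 were higher without overlap on the right, beside 8.69% of all rows, with a median of 0.65. The left limb was the higher in each recovery animal, and the left minus right difference exceeded that of the sham animals by 2.26 ± 0.45 for Col3a1 and by 2.78 ± 0.70 for Postn (adjusted p = 0.148 and 0.179 in limma). For Postn the right limbs overlapped, with 13.98, 11.8 and 7.32 and 4.89, 5.06 and 7.41.

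**Figure D3:**
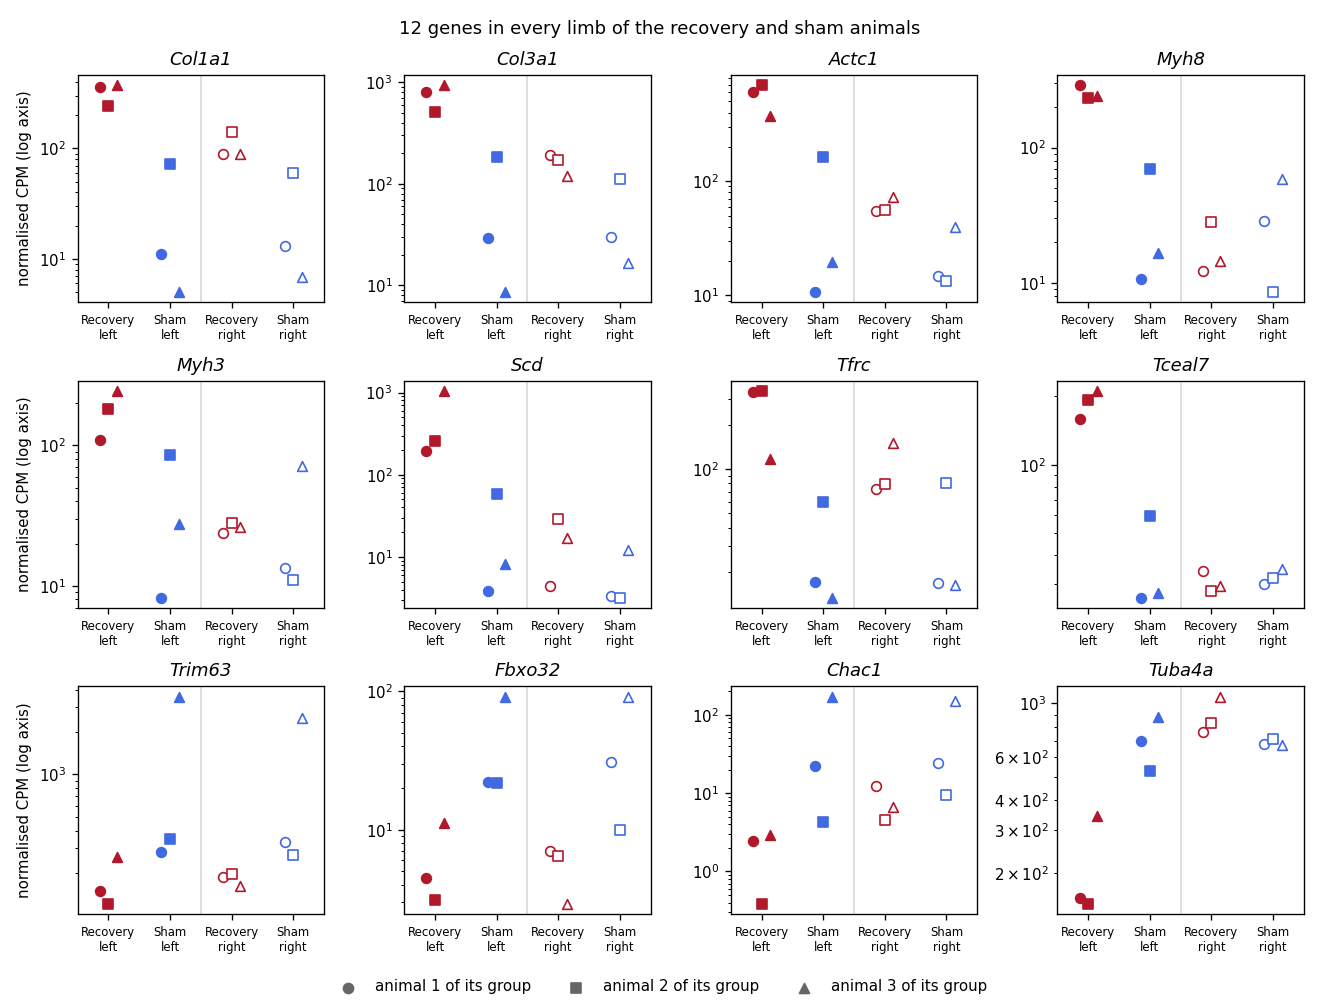
Normalised CPM (y axes, logarithmic) of 12 genes in each limb of the recovery and sham animals, with left limbs filled, right limbs open and a marker shape for each animal. In the left limbs no gene shown overlaps between the groups. Myh8, Tceal7 and Tuba4a show it on the left while their right limbs overlap or, for Tuba4a, lie in the opposite order.

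Of 11 genes of the developing sarcomere, the contractile unit, 5 were higher without overlap and 0 lower, beside 11.3% and 13.0% of all rows. Their median was 0.70, and 0.38 against sham limb 2 alone. The summed level of the list overlapped, with 2076, 2232 and 2778 normalised CPM in the recovery limbs and 622, 1395 and 2993 in the sham limbs, so that sham limb 3 lay above every recovery limb. Myh8, the perinatal myosin heavy chain (chromosome 10, 51963510 to 51993104 on rn7, plus strand), had 289, 233 and 239.9 normalised CPM in the recovery limbs and 10.8, 69.8 and 16.6 in the sham limbs. The lowest recovery limb was 3.34 times the highest sham limb, and the difference was 3.37 ± 0.60 (adjusted p = 0.135 in limma). Actc1, the cardiac form of actin that fetal skeletal muscle uses (chromosome 3, 100811987 to 100817524 on rn7, minus strand), had 610.3, 696 and 374 and 10.7, 163 and 19.4 (4.00 ± 0.90). Here too sham limb 2 was the highest of the sham limbs.

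The embryonic heavy chain Myh3 (chromosome 10, 51770177 to 51793993 on rn7, plus strand) had 109, 182 and 245 normalised CPM in the recovery limbs and 8.22, 85.5 and 27.6 in the sham limbs (2.59 ± 0.75, adjusted p = 0.178 in limma). The groups were separate, but sham limb 2 came within a factor of 1.27 of recovery limb 1. Myl4, an embryonic light chain, had 55.8, 45.9 and 70.6 and 15.8, 30.5 and 16.6 (1.45 ± 0.28), and Tnnt2, the cardiac form of troponin T, had 12.2, 11.6 and 18.01 and 2.93, 10.4 and 8.01 (0.99 ± 0.42). Reads of the myosin heavy chains, which are much alike in sequence, may have been shared between them in counting. In the right limbs Myh8 overlapped, with 12.2, 28.4 and 14.5 in the recovery animals and 28.8, 8.59 and 58.2 in the sham animals (−0.50 ± 0.66), and so did Myh3, with 23.9, 27.9 and 26.1 and 13.3, 10.9 and 71.9. The left minus right difference of Myh8 exceeded that of the sham animals by 3.87 ± 1.08 (adjusted p = 0.199 in limma). For orientation, the left limbs after TTX without recovery had 42.9, 12.6 and 77.5 for Myh8 and 203, 8.90 and 147 for Myh3. Without sham limb 2, 5 of the 11 passed, all higher, beside 2.83% of all rows. Among them was Myh8 at 4.14 (adjusted p = 0.00589 in limma). Against sham limb 2 alone, the differences were 1.84 for Myh8 and 0.98 for Myh3, with no test.

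The adult myosin heavy chains overlapped with sham except for Myh4. Myh4, the chain of the fastest fibres, had 56562, 53138 and 53945 normalised CPM in the recovery limbs and 39804, 42408 and 38598 in the sham limbs. These values were separate, with a difference of 0.44 ± 1.56 and a 95% interval of −3.24 to 4.12. The limbs of a group were much closer together than this error, with an SD of 0.047 in the recovery limbs and 0.069 in the sham limbs on the log2 scale. The adjusted p in limma was 0.9 with the intensity trend, 0.193 without it and 0.581 with robust hyperparameters. The right limbs were separate in the same direction, with 75289, 80144 and 90011 and 40443, 62891 and 40812. Myh1, of the fast IIX fibres, had 37358, 64816 and 47292 and 44519, 54529.9 and 37057 (0.12 ± 1.57), and Myh2, of the IIA fibres, had 6481, 9638 and 4955 and 3989, 4981 and 1451 (1.14 ± 0.61, and 0.60 to 1.49 with 1 limb left out). Myh7, of the slow fibres, had 886, 1444 and 979 and 1259, 1934 and 1158 (−0.39 ± 0.32). All 3 overlapped between the groups, and the sign of the Myh1 difference turned with the CPM as deposited or with quantile normalization. Mylk2, the kinase that phosphorylates the fast regulatory light chain and so potentiates force, was lower, with 488, 577 and 537 against 1712, 1129 and 1022 (−1.23 ± 0.26), and its right limbs overlapped (−0.30 ± 0.30).

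At the nerve contact, most acetylcholine receptor subunits overlapped with sham. The subunit genes Chrna1, Chrnd and Chrng, which silenced muscle makes along the whole fibre, overlapped between the groups. Chrna1 had 88.7, 46.6 and 249 normalised CPM in the recovery limbs and 16.4, 62.2 and 63.4 in the sham limbs (1.31 ± 0.71, adjusted p = 0.375 in limma). Chrnd had 91.6, 68.7 and 215 and 18.2, 78.9 and 79.8 (1.16 ± 0.64, and 0.48 to 1.51 with 1 limb left out), and Chrng, the fetal subunit, had 10.1, 5.10 and 28.1 and 1.14, 10.8 and 2.68 (1.47 ± 0.76). Recovery limb 3 was the highest for all 3 genes, and the left limbs after TTX without recovery had 735, 69.4 and 345 for Chrna1. Chrne, the adult subunit that takes the place of Chrng, was separate, with 22.4, 15.98 and 25.6 against 10.4, 11.1 and 9.83 (0.94 ± 0.22). Rapsn, which clusters the receptors, was lower with 16.1, 16.7 and 16.9 against 26.2, 26.9 and 21.4 (−0.55 ± 0.16). Of the 17 genes of this list tested, 2 were higher and 1 was lower without overlap, close to the shares of all rows.

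Among regulators of muscle formation, 1 of 16 was higher and 2 were lower without overlap, close to the 11.3% and 13.0% of all rows. Myog, the differentiation factor that denervated muscle makes in excess, had 37.6, 25.2 and 124 normalised CPM in the recovery limbs and 38.5, 66.2 and 159 in the sham limbs (−0.58 ± 0.68), with overlap, and leaving out 1 limb in turn gave −1.24 to −0.036. Cdh15, the cadherin of satellite cells and young fibres, was lower in all 3, with 12.3, 8.94 and 12.04 against 24.2, 20.7 and 21.96 (−0.96 ± 0.19), and its right limbs overlapped (−0.039 ± 0.16). Igf2, a growth factor of regenerating muscle, had 115, 125 and 126 against 50.8, 91.9 and 49.7 (0.97 ± 0.25), with sham limb 2 again the closest. Of 9 satellite cell markers, 1 was higher and 1 lower without overlap, close to the same shares of all rows. Their sum was 67.2 to 88.6 in the recovery limbs, 89.4 and 75.7 in sham limbs 1 and 2 and 295 in sham limb 3.

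Of 19 genes of muscle protein loss, called atrogenes, 11 were lower in all 3 recovery limbs than in all 3 sham limbs and 0 were higher, beside 13.0% and 11.3% of all rows, with a median of −1.01 and of −0.36 against sham limb 2 alone. Fbxo32, the ubiquitin ligase atrogin-1, had 4.48, 3.11 and 11.3 normalised CPM in the recovery limbs and 22.003, 21.8 and 91.5 in the sham limbs (−2.49 ± 0.63, adjusted p = 0.162 in limma). Trim63, the ubiquitin ligase MuRF1 (chromosome 5, 146533517 to 146547294 on rn7, plus strand), had 149.8, 121 and 259 and 283, 349 and 3564 (−2.07 ± 0.92, adjusted p = 0.296). Sham limb 3 stood far above the other limbs for both, and without it the difference was −1.82 for Fbxo32 and −0.90 for Trim63. Against sham limb 2 alone the differences were −1.81 and −1.05, with no test.

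Other members had separate values as well. Foxo4, a forkhead factor, had 157, 173 and 150.2 normalised CPM in the recovery limbs and 314, 240.3 and 445 in the sham limbs (−1.01 ± 0.24). Klf15, a factor that glucocorticoids induce, had 25.4, 24.5 and 22.7 and 55.3, 36.995 and 103 (−1.27 ± 0.34), and Eif4ebp1, which holds back the start of translation, had 22.3, 25.2 and 26.997 and 107, 42.1 and 369.8 (−2.22 ± 0.69). In all 3 genes sham limb 2 was the lowest of the sham limbs. In the right limbs, 9 of 19 were lower without overlap, beside 10.0% of all rows, with a median of −0.50. Trim63 had 187, 198 and 162 in the right limbs of the recovery animals and 334, 267 and 2506 in those of the sham animals (−1.74 ± 0.80), and Fbxo32 had 7.05, 6.51 and 2.93 and 31.1, 9.90 and 90.5 (−2.36 ± 0.74). The left minus right difference of these genes differed between recovery and sham animals by −0.33 ± 0.36 and −0.13 ± 0.66 (adjusted p = 0.72 and 0.948 in limma).

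Of 31 subunits of the proteasome, which degrades the proteins that ubiquitin marks, 19 were lower without overlap on the left, beside 13.0% of all rows, and 18 on the right, beside 10.0%, and none was higher on either side. The median was −0.44 on the left and −0.29 on the right. Psmd8, a subunit of the regulatory particle, had 53.9, 57.5 and 61.3 normalised CPM in the recovery limbs and 113, 82.5 and 197 in the sham limbs (−1.08 ± 0.30). Psma7, a subunit of the core, had 143, 125 and 136 and 237, 198 and 229 (−0.71 ± 0.14). Against sham limb 2 alone the left median was −0.23. The summed level of the list was 3792 to 4382 in the recovery limbs, and it was 4784 in sham limb 2, 5884 in sham limb 1 and 6959 in sham limb 3. Without sham limb 2, 7 of the 31 passed, all lower, beside 2.09% of all rows.

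In the stress response through ATF4, which amino acid shortage and misfolded proteins switch on, 4 of 23 members were lower and 2 higher without overlap, near the 13.0% and 11.3% of all rows. The list median was −0.12, and 0.019 against sham limb 2 alone. Atf4 itself had 247, 254 and 221 normalised CPM in the recovery limbs and 569, 406 and 1053 in the sham limbs (−1.37 ± 0.34), without overlap. Chac1, a target of ATF4 that degrades glutathione, had 2.44, 0.388 and 2.91 and 22.5, 4.22 and 171 (−3.38 ± 1.16, adjusted p = 0.217 in limma). The range among the sham limbs of Chac1 was wide, and without sham limb 3 the difference was −2.06, and against sham limb 2 alone it was −0.98, with no test. Cdkn1a, the cell cycle inhibitor p21, overlapped, with 114, 62.1 and 275 and 59.4, 149 and 254 (−0.069 ± 0.66, 95% interval −1.62 to 1.48). Of the 17 glucocorticoid-responsive genes, 3 were lower without overlap, beside the 13.0% of all rows, for example Fkbp5 with 29.6, 32.4 and 26.4 against 43.8, 45.2 and 79.99 (−0.86 ± 0.25). The median of that list was −0.85 and, against sham limb 2 alone, 0.10.

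Scd, the desaturase that makes monounsaturated fatty acids (chromosome 1, 243269908 to 243282509 on rn7, minus strand), had the largest difference among the genes named here. It had 193, 258 and 1046 normalised CPM in the recovery limbs and 3.82, 57.6 and 8.17 in the sham limbs (4.77 ± 0.99, adjusted p = 0.14 in limma). The lowest recovery limb was 3.35 times sham limb 2, and recovery limb 3 was the highest. The right limbs overlapped, with 4.44, 29.04 and 16.9 in the recovery animals and 3.38, 3.19 and 12.2 in the sham animals (1.201 ± 0.71), and the left minus right difference exceeded that of the sham animals by 3.57 ± 1.11 (adjusted p = 0.228). Scd2, a second desaturase gene whose reads may be shared with Scd, had 149.7, 125 and 249.5 and 44.7, 97.2 and 17.3 (1.95 ± 0.58). Of the whole list of fatty acid synthesis, with 21 genes tested, 3 were higher and 3 lower without overlap, near the 11.3% and 13.0% of all rows, with a median of 0.013, whose sign turned with the CPM as deposited. Adipocytes are rich in desaturase. Of 11 adipocyte markers, 0 were higher and 2 lower without overlap, beside 11.3% and 13.0% of all rows. Their sum was 435 to 599 in the recovery limbs and 579 to 1682 in the sham limbs, and Retn and Pck1 were at 0 in at least 1 limb. Adipoq, the adipocyte hormone adiponectin, had 15.2, 8.01 and 4.61 and 4.36, 9.01 and 2.74 (0.68 ± 0.49), with overlap. The part that adipocytes had in the Scd difference was not tested.

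The respiratory chain lay above the mean of the sham limbs on both sides. Of 35 genes of complex I tested, 34 had a positive difference on the left, but 5 were separate, beside 11.3% of all rows. On the right 12 were separate, beside 8.69% of all rows. For complexes II to V the numbers were 40 positive and 6 separate of 41 on the left and 15 separate on the right. The same shares of all rows apply. The medians were 0.67 and 0.75 on the left and 0.91 and 0.84 on the right. Against sham limb 2 alone the left medians were 0.084 and 0.15. The group difference lay mostly with sham limbs 1 and 3.

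Sdhb, of complex II, had 611, 593 and 382 normalised CPM in the recovery limbs and 248, 467 and 181 in the sham limbs (0.91 ± 0.37), and recovery limb 3 was below sham limb 2. Atp5pf, of the ATP synthase, had 686, 649 and 390.2 and 226, 398 and 164 (1.18 ± 0.37), with the same overlap. The complex IV genes Cox6a1, with 52.5, 59.003 and 42.002 against 34.4, 34.2 and 29.6 (0.62 ± 0.17), and Cox8a, with 54.2, 58.1 and 45.3 against 32.5, 35.6 and 23.1 (0.78 ± 0.20), were separate. Of 19 regulators of mitochondria, 2 were higher and 2 lower without overlap on the left, beside 11.3% and 13.0% of all rows. On the right 8 were higher and 1 lower, beside 8.69% and 10.0%. Ppargc1a, the coactivator PGC-1α, overlapped on the left, with 7.54, 6.85 and 3.69 and 3.25, 4.55 and 2.89 (0.59 ± 0.31). Perm1, a muscle regulator that acts with it, had 330.2, 440.4 and 161 and 53.2, 299 and 27.7 (1.89 ± 0.83), and sham limb 2 lay inside the recovery range. Opa1, which fuses the inner membrane (0.66 ± 0.24), and Ppif, a part of the permeability pore (1.17 ± 0.39), overlapped as well. On the right, Ppargc1a, Perm1 and Ppif were separate and higher (0.90 ± 0.25, 2.00 ± 0.54 and 0.92 ± 0.28).

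Of 23 genes of glycolysis and glycogen, 4 were higher and 1 lower without overlap on the left, beside 11.3% and 13.0% of all rows, and 15 were higher on the right, beside 8.69%. Their median against sham limb 2 alone was 0.0036. Of 20 genes of calcium handling, 5 were higher and 2 lower on the left and 10 were higher on the right, beside the same shares, with a left median of 0.21, whose sign turned with the CPM as deposited, and of −0.10 against sham limb 2 alone. Pvalb, the calcium buffer of fast fibres, had 4976, 4611 and 4283 and 1194, 2419 and 417 (2.12 ± 0.62), and nearly the same difference on the right (2.20 ± 0.79). Casq2, the slow and cardiac calsequestrin, was higher with 116, 158 and 99.5 against 23.6, 64.8 and 19.8 (1.93 ± 0.43), and its right limbs overlapped (0.42 ± 0.25). Jsrp1, a protein of the junction where calcium is released, was lower with 178, 178 and 190.1 against 357, 265 and 320.1 (−0.78 ± 0.16), and it also overlapped on the right (0.16 ± 0.16). The potassium channel gene Kcnj12 had 44.2, 46.5 and 35.3 against 74.9, 77.4 and 76.8 on the left (−0.86 ± 0.15), where the sham limbs were nearly equal, and was higher on the right with 117, 104 and 123 against 94.9, 102 and 97.2 (0.23 ± 0.12).

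Several genes outside the lists had separate values on the left, and they are given because their differences were large, chosen after their values were seen. Tceal7, a nuclear protein of the transcription elongation factor A-like family, had 159, 192 and 211 normalised CPM in the recovery limbs and 25.97, 59.2 and 27.3 in the sham limbs (2.38 ± 0.32, adjusted p = 0.135 in limma). Its right limbs had 34.2, 27.7 and 29.1 and 29.9, 31.6 and 34.7, which overlapped and lay below sham left limb 2, and the left minus right difference exceeded that of the sham animals by 2.46 ± 0.33 (adjusted p = 0.13). Tfrc, the receptor that brings iron into the cell, had 333, 339.6 and 116 and 17.003, 59.7 and 13.4 on the left (3.24 ± 0.63) and 73.1, 79.6 and 149.9 and 16.9, 80.6 and 16.4 on the right. It was separate on the left, while on the right sham limb 2 lay above recovery limbs 1 and 2. Igsf1, a membrane protein, had 22.4, 23.5 and 14.3 and 0.929, 4.92 and 1.55 (2.75 ± 0.44). Sfrp4, a secreted modulator of Wnt signals, had 22.3, 14.8 and 56.96 and 0.643, 5.06 and 0.328 (3.55 ± 0.69). Recovery limb 3 was again the highest for Sfrp4.

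Among the genes below sham, the tubulins differed between the sides. Tuba4a, an alpha tubulin, had 157, 149.8 and 343 normalised CPM in the recovery left limbs and 697, 525 and 884 in the sham left limbs (−1.77 ± 0.36, adjusted p = 0.139 in limma). On the right the order was the opposite, with 764, 828 and 1067 and 683, 712 and 675, and the left minus right difference was lower in the recovery animals by 2.11 on the log2 scale (adjusted p = 0.13). Tubb4b, a beta tubulin, had 78.6, 65.4 and 104 and 247, 187 and 650.4 on the left (−1.93 ± 0.45) and overlapped on the right (−0.24 ± 0.28). Reads of the tubulin genes may be shared with other members of their families. Other genes were lower on both sides. Tpx2, a spindle protein, had 12.7, 13.7 and 12.9 against 77.3, 50.8 and 189 on the left (−2.70 ± 0.43) and −2.14 ± 0.44 on the right. Of 31 genes of cell proliferation tested, 3 were higher and 1 lower without overlap on the left, beside 11.3% and 13.0% of all rows. Pnpla7, a lysophospholipase, had 27.8, 30.5 and 44.8 against 269, 88.3 and 448 (−2.67 ± 0.55). Hmox1, the haem oxygenase, had 5.33, 4.66 and 4.90 against 26.6, 14.4 and 19.2 (−1.78 ± 0.26), and Art5, an ADP-ribosyltransferase, had 19.8, 20.4 and 24.04 against 97.6, 55.9 and 69.8 (−1.72 ± 0.22). The sham limbs of these last 2 genes were less scattered than those of Fbxo32 or Chac1. Arrdc2, an arrestin-domain protein, had 5.04, 5.58 and 7.96 against 46.5, 19.5 and 205 (−3.05 ± 0.75), with sham limb 3 far above the others.

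**Figure D4:**
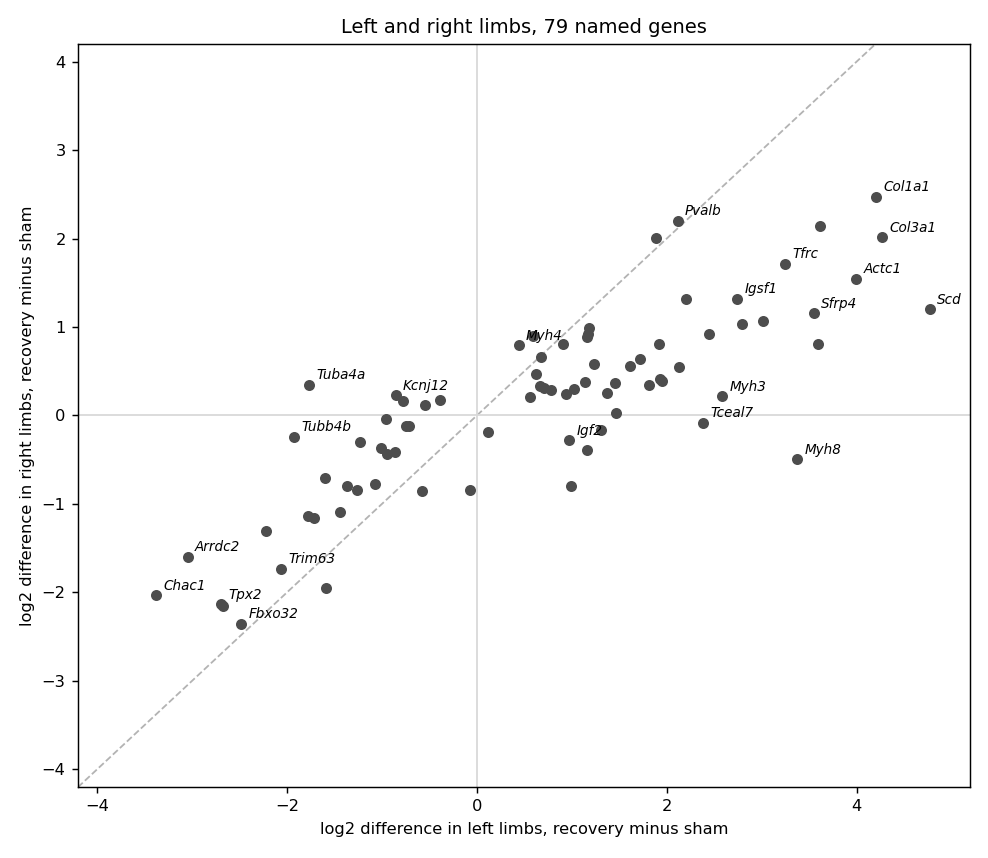
Log2 difference, recovery minus sham, in left limbs (x axis) and right limbs (y axis) of the same animals for the 79 genes named in the text, with a dashed line where both are equal. Scd, Col3a1 and Col1a1 lie farthest right, Pvalb and Fbxo32 lie near the line, Myh8 and Tceal7 lie near 0 or below on the y axis, and Tuba4a is lower on the left and higher on the right.

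Markers of other cells were measured beside these groups. The 14 skeletal muscle fibre markers were present in every limb, with sums of 218386 to 270082 normalised CPM in the recovery limbs and 147777 to 240604 in the sham limbs, and the labelled tissue is skeletal muscle. Of 24 macrophage and leukocyte markers, 3 were higher without overlap and 0 lower, close to the share of all rows, and Cd68, a macrophage protein, had 8.61, 5.44 and 11.99 and 5.72, 6.31 and 4.14 (0.56 ± 0.31). Of 14 endothelial markers, 5 were lower without overlap, beside 13.0% of all rows, and none was higher, for example Cldn5, a junction protein of vessel walls, with 7.99, 6.07 and 7.57 against 37.9, 14.5 and 24.2 (−1.60 ± 0.34). Sham limb 1 had the highest sum of these markers (774), sham limbs 2 and 3 had 444 and 496, and the recovery limbs had 321 to 397. The T and B lymphocyte markers summed to 83.7 in sham limb 1 and to at most 9.86 in every other limb of the comparison, with Cd79b and Ms4a1 among those at 0 in at least 1 limb. Red blood cell and Schwann cell markers overlapped but for 1 of 13 Schwann cell genes, which was higher, beside 11.3% of all rows.

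Of 49 cytosolic ribosomal protein genes, 1 was lower and none higher without overlap, beside 13.0% and 11.3% of all rows. Their median was −0.24, and 0.33 against sham limb 2 alone. Of 22 genes of ribosome assembly, 6 were lower without overlap on the left, beside 13.0% of all rows, and 8 on the right, beside 10.0%. Of 22 genes that nerve activity induces, 3 were lower and none was higher without overlap, the lower ones at about the 13.0% of all rows. Btg2, an early response gene among them, had 28.8, 22.9 and 34.96 normalised CPM against 78.8, 37.5 and 166 (−1.44 ± 0.49). Of 16 clock genes, 3 were lower and 1 was higher without overlap, beside the same 13.0% and 11.3%, with Arntl, the clock activator BMAL1, at 3.40, 5.44 and 7.48 against 11.6, 12.3 and 38.1 on the left (−1.59 ± 0.48) and −1.95 ± 0.51 on the right. Per the study's methods, muscles of all groups were taken within the same window of several hours, early in the inactive phase. The part that the hour of sampling had in these values was not tested. Of 24 genes of fatty acid oxidation, none was separate on the left, beside 24.3% of all rows in either direction.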

How the data were processed

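RNA from the tibialis anterior of both limbs of 12 rats was sequenced as directional, paired-end libraries of polyadenylated RNA. Per the paper's methods, the authors removed contaminant reads with Bowtie2 (2.2.5), used STAR to align the remaining reads to rn7, and worked in Partek Flow. How reads were counted, and over which annotation, is not given in the sources used here. The authors deposited CPM, and each column of the table sums to 1000000. The authors name DESeq2 and its median of ratios, which the deposited CPM had not gone through, so that scaling was computed here. Its factors came from 11397 rows above 0 in all 24 limbs. Low values were whole multiples of a step (within 0.02 of a step) in 87.8% to 88.6% of cases in the 6 limbs, reads were therefore not recovered, and no count test was run. Depth was inferred from the step.

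Of 14271 rows, 28 exact duplicates were dropped, and 513 symbols keep several rows. Of 27 value columns, 3 match no sample and were not used. Rows above 0 in at least 3 of the limbs fitted were tested on log2(normalised CPM + 1) in limma 3.58.1 under R 4.3.3, using an intensity trend. The threshold was a Benjamini-Hochberg adjusted p up to 0.05 together with a minimum fold change of 1.2. The comparison of left limbs held 6 limbs, another fit the 6 right limbs of the same animals, and the last fit all 12 limbs with the animal as a block. The pairing of left with right limbs comes from the animal numbers in the sample titles. Deviations of paired limbs from their group means correlated at 0.0584, −0.186 and −0.197 in the recovery animals and at 0.771, 0.612 and 0.838 in the sham animals (10613 rows). The fits were tested on simulated data. Python 3.11.15, numpy 2.4.6 and pandas 2.3.3 were used for all else.

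The limbs compared, the 36 gene lists and the tests were chosen with earlier results of these data known. The rule for named genes took the 12 largest passing rises and falls and passing list members, of which there were none, and 28 genes whether or not they passed. The other 51 genes named were chosen after their values were seen, mostly list members or large differences whose groups did not overlap. Where a symbol has several rows, the one of highest mean is given. The promoters come from the RefSeq table of GRCr8, and coordinates of genes on rn7 are as deposited.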

Additional observations from a re-analysis of the deposited data

Results flagged for a closer look

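Of the 79 genes named in the report and below, 3 had left minus right differences of 1 sign in all 3 recovery animals and of the other sign in all 3 sham animals. Hmox1 was lower in the left than in the right limb of each recovery animal (−0.26, −0.51 and −0.13 on the log2 scale) and higher in each sham animal (0.072, 0.58 and 0.39), and the difference between the animals was −0.64 ± 0.23 (adjusted p = 0.282 in limma). Art5 had −0.70, −0.64 and −0.13 in the recovery animals and 0.0045, 0.10 and 0.11 in the sham animals, with a difference of −0.56 ± 0.18 (adjusted p = 0.242). Cldn5 had −0.47, −1.17 and −0.81 in the recovery animals and 0.069, 0.063 and 0.10 in the sham animals, with a difference of −0.89 ± 0.22 (adjusted p = 0.179). None of these differences passed. How many of all rows had such opposite signs was not counted, so the 3 are no result about the named genes. Groups of 3 limbs are too small for a test of single outlying values.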

How the results depend on the processing

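With all 6 left limbs the count of passing rows was 0 under every scaling, pseudocount, filter, trend setting, fold change and row summing tried, with 1657 to 2522 rows at an unadjusted p under 0.05. It was 4 (3 higher, 1 lower) with all 12 left limbs in 1 fit and 184 (94 higher, 90 lower) with array weights. Leaving out 1 limb in turn gave 0 to 650 on the left and 0 to 782 on the right, where all nonzero counts came without sham replicate 2. With only 2 sham limbs left, their spread is pooled with that of the recovery limbs. For the left minus right comparison, leaving out 1 animal gave 0 to 2 (2 without sham replicate 2 and 2 without recovery replicate 3), keeping rows with a mean CPM from 10 up gave 9, and array weights gave 252. With the animal as a replicate block the count was 0, and with no replicate block it was 0. The filter at 0.01 CPM, chosen after seeing the data, left all 3 counts at 0.

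Of the 79 genes named, 50 passed without sham replicate 2, 29 with array weights and 1 with all 12 left limbs. Among all rows, 2.83% passed as higher and 2.09% as lower without sham replicate 2, and 184 of 13399 passed with array weights. Most of the named genes were chosen after their values in these limbs were seen, so their passing in a new fit of the same limbs is no separate test. The sign turned under any setting for 9 of the 79 genes. Myh1 was −0.10 with the CPM as deposited, −0.17 with quantile normalization and −0.092 to 0.31 with 1 limb left out. Cdkn1a was 0.23 with array weights and −0.63 to 0.43 with 1 limb left out. With the replicate block, which sets left against right limbs, the differences turned to −0.36 for Myh4, 0.28 for Myog, 0.78 for Cdkn1a, −0.31 for Ppargc1a, −0.11 for Perm1, −0.087 for Pvalb and 0.36 for Arntl. Set against the sham limb of the recovery time point alone, a comparison added after seeing the data, 55 of the 79 differences moved by more than 1 SD, and Myh1 (−0.17), Perm1 (−0.061) and Adipoq (−0.10) turned sign. A count test on recovered reads was planned only if reads could be recovered, and it was not run. With 1 read worth 0.0337 to 0.0506 CPM in these limbs, depth limits only rows with low values. Having 3 animals a group limits every row, and the spread of the sham limbs limits the rows in which those limbs differ.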

Other observations

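Chaperones were mixed. Of 19 tested, 5 were higher and 5 lower in all 3 recovery limbs than in all 3 sham limbs, beside 11.3% and 13.0% of all rows. Hspb6, a small heat shock protein of muscle, had 2961, 4266 and 2188 normalised CPM in the recovery limbs and 534, 1524 and 627 in the sham limbs (1.92 ± 0.47), while Cryab, a chaperone of the sarcomere, had 806, 689 and 876 and 1275, 1393 and 1975 (−0.95 ± 0.26). Both were separate between the groups and in opposite directions. Hspb6 was separate on the right too, by a small margin (0.80 ± 0.34), and so was Cryab (−0.43 ± 0.21).

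Among 19 genes of the growth factor and myostatin axis, 4 were higher and 2 lower without overlap, beside the same shares, which hold for the lists below too. Fstl1, a secreted glycoprotein of mesenchymal cells, had 43.3, 35.3 and 48.1 normalised CPM in the recovery limbs and 11.9, 25.3 and 7.15 in the sham limbs (1.61 ± 0.40). Of 20 channel, pump and aquaporin genes, 1 was higher and 3 were lower. Of 21 genes of cholesterol synthesis and uptake, 3 were higher and 2 lower, and of 14 growth arrest genes 1 was higher and 3 were lower. Ccng1, the cyclin G1 gene that p53 induces, was the higher one, with 3315, 3573 and 3027 against 1190.2, 1989 and 1362 (1.16 ± 0.33).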
